A study of Drosophila melanogaster with 2 samples.

Results

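The genes described here are 10 members of the Hippo pathway, hpo, sav, wts, mats, yki, sd, ex, kibra, ft and ds, out of 13822 loci in the deposited transcript table. They were chosen by symbol, with the transcript row of highest mean read count standing for each locus. RNA was sequenced from the posterior midgut of 9-day-old Drosophila melanogaster females reared at 25 °C, with 75 midguts dissected per condition and 3 poly(A) libraries made for each. In the Gli-RNAi condition RU486 was given and knocked down gliotactin (Gli), a protein of the corners where 3 epithelial cells meet, in enterocytes, the absorptive cells of the gut. The control condition received ethanol. Flies of both conditions carried the same transgenes, 5966GS-GAL4 and UAS-Gli-RNAi, and differed in the drug, so RU486 and the knockdown cannot be told apart. The labels call the libraries biological replicates, but total RNA was extracted from pooled midguts, and p-values here cover the spread of the libraries, part of which may be technical. The whole dissected tissue was sequenced, and in such bulk samples fewer cells of a type and less RNA per cell cannot be told apart.

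The Hippo pathway is a kinase cascade that limits tissue growth. The kinase Hpo, with its scaffold Sav, activates the kinase Wts, with its cofactor Mats, and Wts phosphorylates the coactivator Yki and keeps it out of the nucleus. Yki that reaches the nucleus works with the DNA-binding protein Sd to switch on genes of growth and survival, among them ex and kibra, whose products act upstream of Hpo and so form a negative feedback. Ex and Kibra sit at the cell membrane near the apical junctions, and the large cadherins Ft and Ds feed into the cascade from neighbouring cells. In the fly midgut, Yki is known to promote stem cell division, from within stem cells and through cytokines released by damaged enterocytes.

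The Gli-RNAi libraries held between 8111031 and 14303722 reads and the control libraries between 6821908 and 10914491, counted with 1 transcript row per locus. Gli had a normalised count (reads divided by a library scaling factor with a mean of 1) of 899 ± 19.1 in Gli-RNAi libraries and 1962 ± 110 in control libraries (SD, n = 3 each), a log2 fold change of -1.13 (edgeR adjusted p = 1.2e-09). Control replicate 3 departed from both other controls, and its departure ran with transcript length. Among 608 genes with a transcript of 5000 bases or more the median log2 ratio of control replicate 3 to the mean of the other controls was -0.38, and among 2272 genes under 1500 bases it was 0.11, over genes with a mean of at least 50 normalised counts. Among the tested Hippo pathway genes this ratio was -0.87 for kibra, -0.65 for sav, -0.58 for ft, -0.41 for hpo and -0.40 for wts. It was -0.28 for sd, -0.11 for ex, -0.058 for yki and 0.23 for mats, and did not simply follow their transcript lengths, given below. Values without control replicate 3 are therefore given beside those of each tested gene.

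Of the 10 genes, 9 passed the filter on low expression and 4 of these rose in Gli-RNAi midguts: ex, kibra, hpo and sd. The feedback genes ex and kibra rose by 1.55-fold and 1.44-fold, the upstream kinase gene hpo by 1.37-fold and the gene of the DNA-binding partner sd by 1.21-fold. The other 5, sav, wts, mats, yki and ft, did not pass an adjusted p under 0.05 in edgeR's quasi-likelihood test, and ds was too low to be tested. Across all 8236 genes tested 27.6% rose and 26.8% fell. None of the 9 genes fell in that test, and 0 fell at an unadjusted p under 0.05, with DESeq2 or with limma-voom. At an unadjusted p under 0.05 a total of 5 rose. The median log2 fold change, Gli-RNAi over control, was 0.27 over the 9 genes and 0.027 over all genes tested, and without control replicate 3 it was 0.13 over the 9 genes. In 6 of the 9 genes every Gli-RNAi library lay above every control library, as it did in 31.6% of all genes tested.

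**Figure D1:**
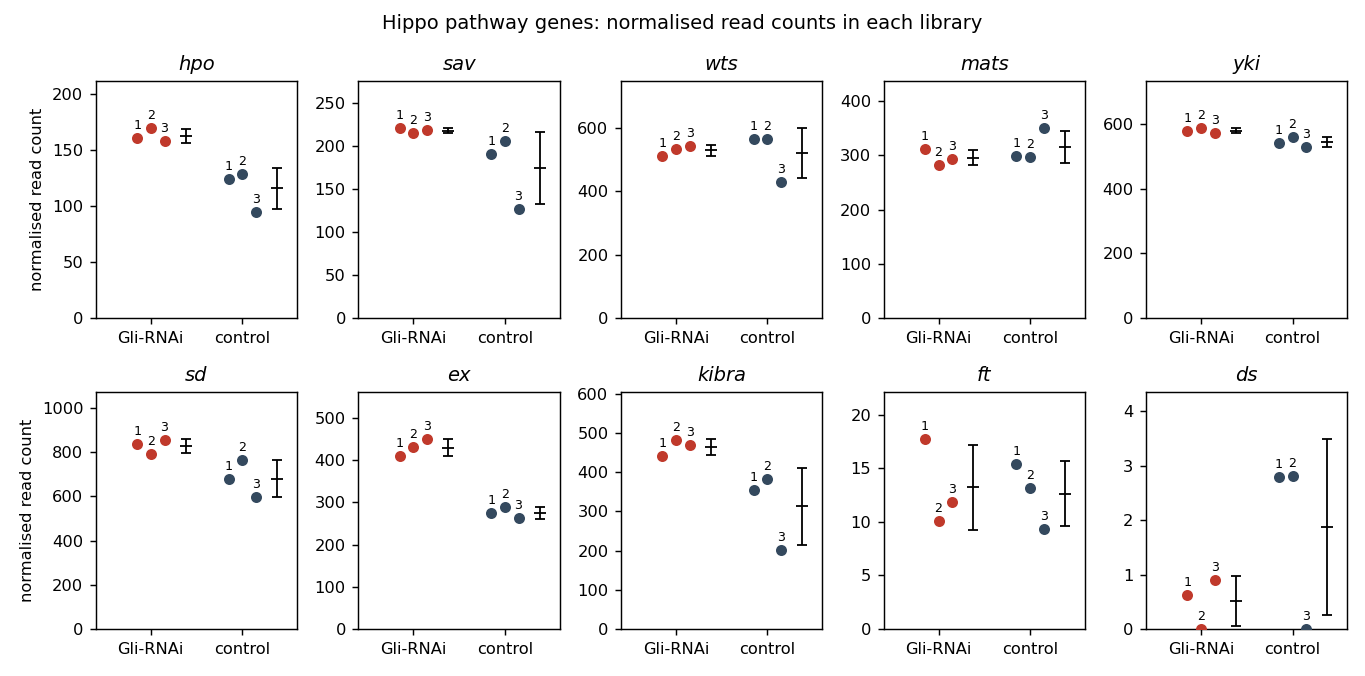
Normalised read counts of the 10 Hippo pathway genes (vertical axes, each from 0) in the 3 Gli-RNAi and 3 control libraries (points, numbered by replicate), with the mean and SD beside them (bars). The Gli-RNAi points lie above all control points for hpo, sav, yki, sd, ex and kibra, and control replicate 3 is the lowest control for every tested gene except mats.

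Of the membrane-associated regulators, ex (FBgn0004583), which encodes a FERM-domain protein, had the largest fold change of the 9. Its row spans 431253 to 448701 on the plus strand of chromosome 2L, in the build of the deposited table, which is not named there, with 6 exons and 6646 bases of transcript. The normalised count of ex was 409, 431 and 449 in the Gli-RNAi libraries and 274, 289 and 262 in the control libraries. The conditions did not overlap, and the spread within each was small. The mean was 429.5 ± 20.0 in Gli-RNAi libraries and 275 ± 13.8 in controls (SD, n = 3 each), a log2 fold change of 0.63 ± 0.0759 (SE, edgeR quasi-likelihood test, adjusted p = 7.3e-06). It was 0.595 without control replicate 3, and ex was called under every alternative tried. That change lay at percentile 89.0 of all genes tested, and 882 genes rose by as much or more.

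The last 448 bases of the ex row overlap the gene crq, a scavenger receptor gene on the opposite strand, and the strand setting of the counting is not given in the sources used here. By these counts crq, named after its values were seen, changed the other way, with 1232 ± 23.1 normalised counts in Gli-RNAi libraries and 1956 ± 23.8 in controls (log2 fold change -0.67 ± 0.0514, edgeR adjusted p = 7.9e-08). An even spread of the crq reads over its transcript would place 199 of them in the overlap in Gli-RNAi libraries and 316 in controls, which in the controls is more than the whole count of ex. The share of crq reads in the ex count was not tested.

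The gene kibra (FBgn0262127) encodes a WW-domain protein that acts with Ex and Merlin upstream of Hpo. Its row lies on the minus strand of chromosome 3R from 10524252 to 10549978 and has 9 exons and 4904 bases. The normalised count of kibra was 441, 481 and 469 in the Gli-RNAi libraries and 356, 382 and 201 in the control libraries. Control replicate 3 was far below the other controls, and all Gli-RNAi libraries lay above the controls. The mean was 464 ± 20.7 in Gli-RNAi libraries and 313 ± 97.8 in controls (SD, n = 3 each), and the log2 fold change was 0.53 ± 0.150 (SE, edgeR adjusted p = 0.00858). Without control replicate 3 the log2 fold change was 0.313 and still past the threshold (edgeR adjusted p = 1.3e-04). With the DESeq2 Wald test kibra was not called (adjusted p = 0.0771).

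In the kinase cassette only hpo passed the test, among 4 genes. The row of hpo (FBgn0261456) lies on the minus strand of chromosome 2R from 15381801 to 15384372, with 2 exons and 2515 bases. The normalised count of hpo was 161, 169 and 158 in the Gli-RNAi libraries and 125, 128 and 95.1 in the control libraries, with no overlap. The mean was 163 ± 5.98 in Gli-RNAi libraries and 116 ± 18.2 in controls (SD, n = 3 each), a log2 fold change of 0.46 ± 0.113 (SE, edgeR adjusted p = 0.00352). Leaving out control replicate 3 gave 0.354 (edgeR adjusted p = 0.00632).

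The scaffold gene sav (FBgn0053193), on the minus strand of chromosome 3R from 18884331 to 18886991, has 3 exons and 2200 bases in its row. Normalised counts for sav were 220.0, 215 and 218 in the Gli-RNAi libraries and 190.4, 205 and 126 in the control libraries. The Gli-RNAi libraries were close together and all above the controls, of which replicate 3 was the lowest. The log2 fold change of sav was 0.29 ± 0.128 (SE) and missed the threshold at an edgeR adjusted p = 0.0705, with a 95% interval from 0.015 to 0.56. Without control replicate 3 it was 0.132 (edgeR adjusted p = 0.244), and without control replicate 2 it was 0.422 and called (edgeR adjusted p = 0.0178).

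The kinase gene wts (FBgn0011739) lies on the minus strand of chromosome 3R from 26615379 to 26632341, with 8 exons and 5771 bases. For wts, normalised counts were 510.1, 534 and 543 in the Gli-RNAi libraries and 564, 565 and 429 in the control libraries. The Gli-RNAi values fell between those of control replicate 3 and the other controls. The log2 fold change was 0.014 ± 0.0925 (SE, edgeR adjusted p = 0.912), with a 95% interval from -0.19 to 0.21, or folds of 0.879 to 1.16. Without control replicate 3 it was -0.0985 (edgeR adjusted p = 0.189).

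The cofactor gene mats (FBgn0038965), on the plus strand of chromosome 3R from 18246877 to 18248568, has the shortest row of the 10, with 3 exons and 1266 bases. In normalised counts, mats was at 311, 283 and 293 in the Gli-RNAi libraries and 298, 297 and 349 in the control libraries. Here control replicate 3 was the highest library, and the conditions overlapped. The log2 fold change was -0.074 ± 0.0839 (SE, edgeR adjusted p = 0.480), with a 95% interval from -0.25 to 0.11, and it was 0.0020 without control replicate 3.

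Among the nuclear effectors, the coactivator gene yki (FBgn0034970) was close to level between the conditions. Its row lies on the minus strand of chromosome 2R from 19953498 to 19956008, with 5 exons and 1525 bases. Normalised counts of yki were 578, 585 and 572 in the Gli-RNAi libraries and 540.3, 560.0 and 528 in the control libraries. The 2 sets did not overlap, but lay near each other, with means of 578 ± 6.86 in Gli-RNAi libraries and 543 ± 16.0 in controls (SD, n = 3 each). The log2 fold change of 0.088 ± 0.0634 (SE) did not pass the test (edgeR adjusted p = 0.261), and its 95% interval ran from -0.048 to 0.22, or folds of 0.967 to 1.17. With library totals as scaling yki had a log2 fold change of 0.278 and was called (edgeR adjusted p = 0.00311), a scaling that raised the median of all genes by 0.19. Without control replicate 3 it was 0.0682 (edgeR adjusted p = 0.367).

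The gene sd (FBgn0003345), which encodes the TEAD-family transcription factor Scalloped, was the most highly counted of the 10. The row used lies on the plus strand of the X chromosome from 15706362 to 15719755, with 11 exons and 3250 bases. The normalised count of sd was 836, 793 and 854 in the Gli-RNAi libraries and 680.3, 764 and 595 in the control libraries. All Gli-RNAi libraries were above the controls, the nearest pair being Gli-RNAi replicate 2 and control replicate 2. The mean was 828 ± 31.4 in Gli-RNAi libraries and 679.9 ± 84.4 in controls (SD, n = 3 each), with a log2 fold change of 0.27 ± 0.0819 (SE, edgeR adjusted p = 0.0114). It was 0.189 without control replicate 3 (edgeR adjusted p = 0.00361), and 0.256 and not called without Gli-RNAi replicate 3 (edgeR adjusted p = 0.0526).

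The atypical cadherin genes were barely detected. The gene ft (FBgn0001075), on the minus strand of chromosome 2L from 4198402 to 4217852, has 8 exons and 16185 bases, and only 81 reads in all. Libraries had ft at normalised counts of 17.7, 10.1 and 11.8 in the Gli-RNAi libraries and 15.4, 13.1 and 9.35 in the control libraries, with full overlap. The log2 fold change was 0.12 ± 0.315 (SE, edgeR adjusted p = 0.766) and its 95% interval, from -0.56 to 0.80, covers folds of 0.680 to 1.74. Without control replicate 3 it was -0.0081 (edgeR adjusted p = 0.990). The gene ds (FBgn0284247), which encodes the ligand of Ft and lies on the minus strand of chromosome 2L from 640021 to 714968 with 12 exons and 12404 bases, had 1, 0 and 1 reads in the Gli-RNAi libraries and 2, 3 and 0 in the control libraries. The ratio of scaled totals was 0.271, with an exact (Clopper-Pearson) 95% interval from 0.0258 to 1.66 that covers counting error only. A change in ds was not detectable at this depth.

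Per unit of transcript length, yki had the highest level of the 10 genes in every library, and the cadherin genes ft and ds had the lowest. In reads per kilobase of transcript per 1000000 counted reads, yki was highest, with levels of 41.8 ± 0.532 in Gli-RNAi libraries and 34.4 ± 1.68 in controls (SD, n = 3 each). The next levels were those of sd, at 28.0 ± 1.08 in Gli-RNAi libraries and 20.2 ± 2.89 in controls, and of mats, at 25.7 ± 1.34 in Gli-RNAi libraries and 24.0 ± 1.72 in controls, and these overlapped each other within each condition. A lower tier held sav, kibra and wts, with Gli-RNAi means of 10.9, 10.4 and 10.1 and control means of 7.65, 6.18 and 8.70, in which neighbours overlapped in both conditions. The genes hpo and ex were at 7.12 and 7.12 in Gli-RNAi libraries and at 4.46 and 4.00 in controls, again overlapping each other. In the Gli-RNAi libraries the lower tier was separated from hpo and ex, while in the controls kibra overlapped hpo. The level of ft was 0.0899 ± 0.0275 in Gli-RNAi libraries and 0.0755 ± 0.0195 in controls. These levels are relative to library totals and not to the scaling used in the test. The rows of mats and yki were the shortest of the 10 and those of ft and ds the longest. Level did not follow length throughout, as wts (5771 bases) lay above hpo (2515 bases) in both conditions. The part of transcript length in this order was not tested.

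**Figure D2:**
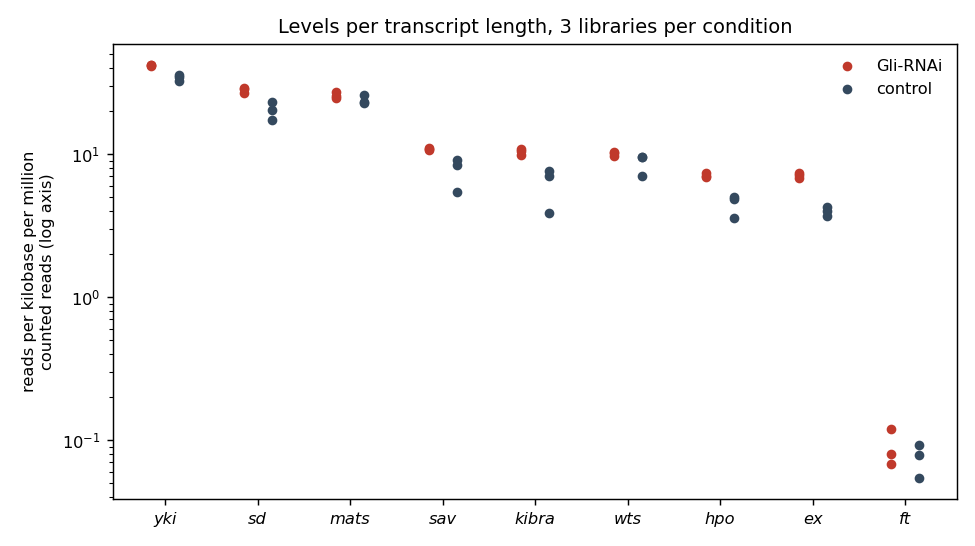
Levels in reads per kilobase per 1000000 counted reads (log axis) of 9 Hippo pathway genes, ordered by their Gli-RNAi mean, with 1 point per library. Levels of yki are between 41.2 and 42.2 in Gli-RNAi libraries and between 32.6 and 35.9 in controls, and those of ft stay at 0.121 or below in all 6 libraries; ds is not drawn because 2 libraries have 0 reads.

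A ratio of 2 genes within a library needs no scaling between libraries. Relative to yki, and per length, ex stood at 0.162, 0.169 and 0.180 in the Gli-RNAi libraries and at 0.117, 0.119 and 0.114 in the control libraries, so that its mean ratio in Gli-RNAi libraries was 1.47 times that in controls. The ratio of kibra to yki was 0.237, 0.256 and 0.255 in Gli-RNAi libraries and 0.205, 0.212 and 0.118 in controls, and that of hpo was 0.168, 0.175 and 0.167 in Gli-RNAi libraries and 0.140, 0.139 and 0.109 in controls. The ratio of sav was 0.264, 0.255 and 0.264 in Gli-RNAi libraries and 0.244, 0.254 and 0.166 in controls. For these genes the conditions did not overlap, though for sav only barely, while the ratios of wts, mats, sd and ft to yki overlapped. The share of all genes tested with ratios to yki that do not overlap was not computed. A ratio does not remove the departure of control replicate 3, where ex, kibra, hpo, sav, wts and sd had their lowest ratios. The ratio of sd was 0.678, 0.636 and 0.701 in Gli-RNAi libraries and 0.591, 0.640 and 0.529 in controls. With 3 libraries against 3, the smallest p an exact two-sided permutation test can give is 0.1, so these ratios are given as a description.

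**Figure D3:**
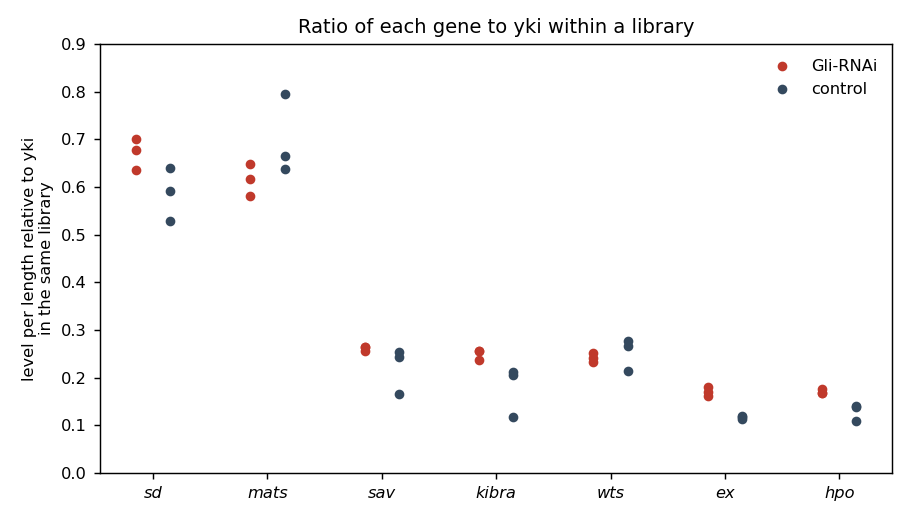
Level per transcript length of 7 Hippo pathway genes relative to that of yki in the same library (vertical axis, from 0), with 1 point per library. The Gli-RNAi points of ex, at 0.162 to 0.180, are above its control points, at 0.114 to 0.119, and those of sd and of wts overlap the controls.

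Where a locus has several transcript rows, their values lay close together. The deposited table has 9 rows for sd, and the log2 ratio of mean normalised counts, Gli-RNAi over control, lay between 0.28 and 0.29 in all of them. For yki the 2 rows had 0.091 and 0.12, and for sav the 2 rows had 0.32 and 0.32. Reads in shared exons are counted in each row, so these are not independent values. The other genes had 1 row each. Exons of hpo share 130 bases with Rep and those of sav share 73 bases with Ctns in the BDGP6.54 annotation, although the deposited spans of these pairs do not overlap. By its own counts Ctns, named after its values were seen, had 2484 ± 42.1 normalised counts in Gli-RNAi libraries and 1428 ± 33.7 in controls (log2 fold change 0.80, edgeR adjusted p = 9.9e-09). Rep, also named after its values were seen, had 430.1 ± 11.3 in Gli-RNAi libraries and 255 ± 9.20 in controls (log2 fold change 0.76, edgeR adjusted p = 7.1e-07). Because the deposited rows of each pair share no bases, these counts do not give the reads in the bases shared in the annotation. The share of Rep or Ctns reads in the counts of hpo and sav was not tested.

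The authors' deposited table of changed genes holds 3049 genes, beside 13822 loci in the transcript table, and their share raised was not computed. It lists 5 of the 10, all as raised in Gli-RNAi. Its log2 fold changes are 0.623 for ex, 0.556 for kibra, 0.471 for hpo, 0.308 for sav and 0.269 for sd. In the authors' deposited table the smallest p-value of sav is 0.0366, which equals their adjusted p-value for the transcript row used here. In the edgeR test above sav missed the threshold (edgeR adjusted p = 0.0705). The authors' deposited table of transcripts gives adjusted p-values of 0.947 for wts, 0.574 for mats, 0.920 for ft, 0.229 for ds, and 0.403 and 0.570 for the rows of yki.

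**Figure D4:**
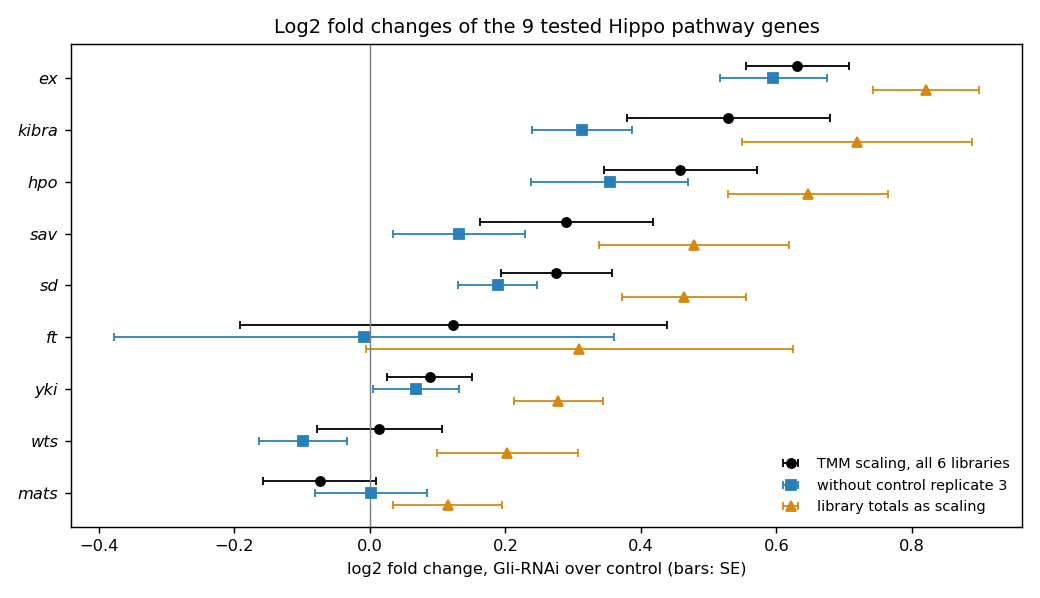
Log2 fold changes, Gli-RNAi over control, with SE, of the 9 tested genes with all 6 libraries and TMM scaling (circles), without control replicate 3 (squares) and with library totals as scaling (triangles). Values of ex stay between 0.595 and 0.821, the value of kibra drops to 0.313 without control replicate 3, and library totals place all 9 genes to the right of 0.

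Each list of other genes that act upstream of Yki held genes that rose. Beside the counts of this and the later lists, 27.6% of all 8236 genes tested rose and 26.8% fell in the edgeR test. The shares of all genes that rose or fell under the alternatives were not computed. With all 6 libraries in the edgeR test, only the list of the Fat and Dachsous branch, of those upstream of Yki, held 1 that fell. In the list of the Fat and Dachsous branch, 3 of 6 genes with a locus of their own were tested, of which 1 rose and 1 fell (median log2 fold change -0.028, or 0.16 with library totals as scaling). The gene lft, which encodes a modulator of Ft and Ds, fell to 9.57 ± 1.14 normalised counts in Gli-RNAi libraries, against 21.3 ± 1.44 in controls (log2 fold change -1.14 ± 0.258, edgeR adjusted p = 0.0020). The casein kinase gene dco rose by 0.20 ± 0.0633 (edgeR adjusted p = 0.0159), a call that was lost with the DESeq2 Wald test and without Gli-RNAi replicate 1 or 3. The palmitoyltransferase gene app had 663 ± 40.0 in Gli-RNAi libraries and 673 ± 71.0 in controls and did not pass. The genes fj, dachs and Fbxl7 were below the filter.

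Among 7 tested apical regulators 3 rose and 0 fell (median 0.17), and with library totals as scaling 6 rose. The phosphatase gene Pez, whose product binds Kibra, rose to 443 ± 22.3 normalised counts in Gli-RNAi libraries, against 311 ± 34.6 in controls (log2 fold change 0.49 ± 0.0860, edgeR adjusted p = 2.5e-04). The junction scaffold genes Magi and Patj rose by 0.49 and 0.27. The kinase gene Tao, which acts above Hpo, and the polarity gene crb had log2 fold changes of 0.10 and 0.12 and did not pass. No gene of this list fell in the edgeR test, with DESeq2 or with limma-voom, nor at an unadjusted edgeR p under 0.05.

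Inhibitors of Hpo and Wts rose in 6 of 12 tested genes and fell in 0 (median 0.28), with 9 rising under library totals and 4 with DESeq2, and 1 falling without control replicate 3. None fell at an unadjusted edgeR p under 0.05, with DESeq2 or with limma-voom. The kinase gene mnb, whose product restrains Wts, rose to 1418 ± 72.7 normalised counts in Gli-RNAi libraries, against 853 ± 6.50 in controls (log2 fold change 0.73 ± 0.0597, edgeR adjusted p = 1.4e-07). The gene jub, which encodes a junctional LIM protein that binds Wts, rose to 278 ± 16.8 in Gli-RNAi libraries, against 172 ± 29.3 in controls (log2 fold change 0.65 ± 0.109, edgeR adjusted p = 1.7e-04). The genes Mob4 and Fgop2, of the STRIPAK phosphatase complex that opposes Hpo, rose by 0.45 and 0.42, while the phosphatase subunit gene mts (0.0058) and Zyx (-0.081) did not pass. Both listed kinases that can act on Wts beside Hpo rose. The gene msn had 2019 ± 76.7 in Gli-RNAi libraries and 1058 ± 259 in controls (log2 fold change 0.92 ± 0.122, edgeR adjusted p = 2.0e-05), and hppy rose by 0.33.

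Cofactors of Yki and Sd were mostly not past the threshold, with 2 of 10 rising and 1 falling (median 0.049), or 5 rising and 0 falling with library totals. Without control replicate 3 there were 3 that fell, and the median was -0.020. The WW-binding protein gene Wbp2 rose to 3789 ± 31.4 normalised counts in Gli-RNAi libraries, against 2482 ± 72.2 in controls (log2 fold change 0.61 ± 0.0475, edgeR adjusted p = 8.5e-08). The gene Hcf rose by 0.21, a call lost with the DESeq2 Wald test and without control replicate 1 or any 1 of the Gli-RNAi replicates. The homeobox gene hth fell by 0.19, a call lost with library totals (0.0049) and without Gli-RNAi replicate 2 or 3 or control replicate 2, while mask (-0.0085) and Mad (0.080) did not pass. The Sd partner gene vg was below the filter.

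Genes reported as Yki targets in other fly tissues or in the gut changed in both directions. Without ex and kibra, 6 of 11 tested rose and 2 fell (median 0.18), and 5 were below the filter. The cyclin gene CycE rose to 62.8 ± 5.77 normalised counts in Gli-RNAi libraries, against 18.0 ± 4.81 in controls (log2 fold change 1.73 ± 0.208, edgeR adjusted p = 7.1e-06). The cytokine gene upd3 rose by 1.51 ± 0.157 and the EGFR ligand gene vn by 0.84 ± 0.163, and the Notch ligand gene Ser fell by 0.88 ± 0.288. The call of Ser was lost with library totals, with the DESeq2 Wald test and without Gli-RNAi replicate 1 or control replicate 2. The genes E2f1 (-0.16) and crb did not pass. Of others, named after their values were seen, Diap1, the inhibitor of apoptosis, rose by 0.18 ± 0.0499 and the glypican genes dally and dlp by 0.56 ± 0.0735 and 0.61 ± 0.0710. The growth regulator gene Myc fell to 2141 ± 18.4 in Gli-RNAi libraries, against 3074 ± 410 in controls (log2 fold change -0.52 ± 0.0776, edgeR adjusted p = 5.4e-05). With library totals 8 of the 11 rose and 1 fell, and 1 fell without Gli-RNAi replicate 1 or control replicate 2. There were 3 that fell without control replicate 3 and without mitochondrial and shared loci. The number was also 3 with DESeq2 size factors, upper quartiles, limma-voom and summed transcript rows (12 tested).

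**Figure D5:**
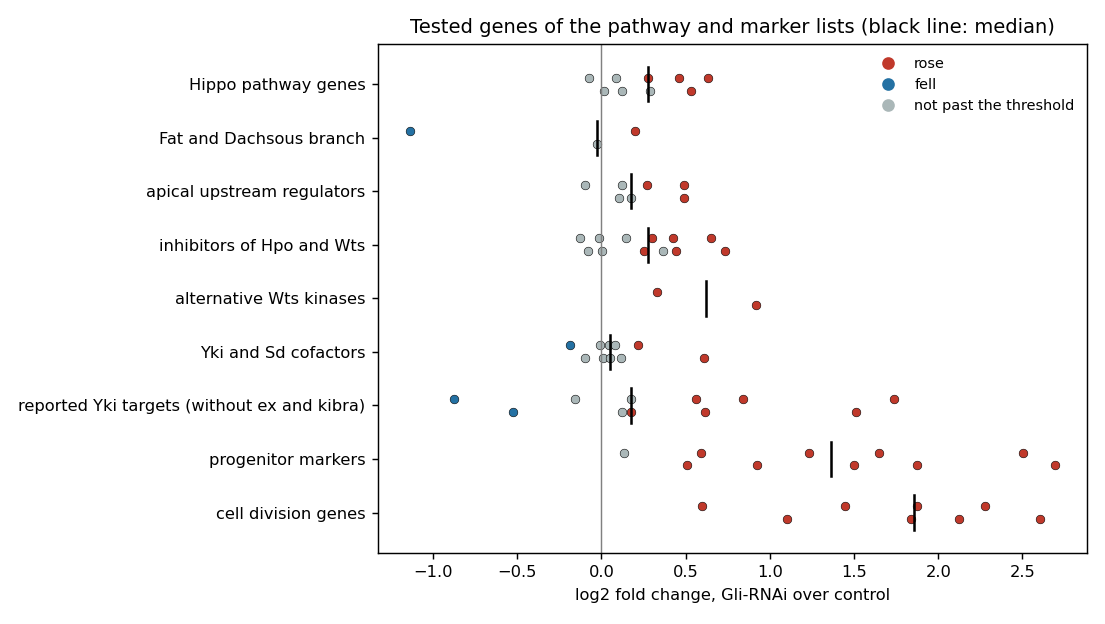
Log2 fold changes, Gli-RNAi over control, of the tested genes of each list (points, coloured by whether they rose, fell or did not pass an edgeR adjusted p under 0.05), with the median of a list as a black line. Hippo pathway genes lie between -0.074 and 0.63, reported Yki targets between -0.88 and 1.73, and the medians of progenitor markers and cell division genes are 1.37 and 1.86.

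Markers of cell types moved between the conditions as well. Of 10 progenitor markers (stem cells and enteroblasts) 9 rose, and their summed normalised count was between 4603 and 4806 in Gli-RNAi libraries and between 1652 and 1837 in controls, with Sox21a, sna, E(spl)m3-HLH and Sox100B at log2 fold changes of 2.69, 2.50, 1.87 and 1.65, and Su(H) not past the threshold (0.14). All 8 cell division genes rose in the edgeR test, or 7 with DESeq2, with sums between 547 and 575 in Gli-RNAi libraries and between 164 and 187 in controls. Of 8 enterocyte markers 2 rose and 3 fell with TMM scaling and 5 rose and 2 fell with library totals, and their sum was between 146290 and 151820 in Gli-RNAi libraries and between 214720 and 222250 in controls. Most of that difference came from 1 gene, the lipase gene mag, with 8292 ± 135 in Gli-RNAi libraries and 69813 ± 1520 in controls (log2 fold change -3.07, edgeR adjusted p = 9.7e-15). The sum of the other 7 was between 138151 and 143448 in Gli-RNAi libraries and between 146630 and 151289 in controls, and the median log2 fold change of the 8 was -0.062, or 0.13 with library totals. Of 10 enteroendocrine markers 1 rose (0 with DESeq2 and without control replicate 2 or Gli-RNAi replicate 1 or 3, 3 with library totals and 2 without control replicate 3) and 6 fell, with sums between 5637 and 5913 in Gli-RNAi libraries and between 7683 and 7720 in controls. Of 9 visceral muscle markers 3 rose and 2 fell, with a median log2 fold change of -0.10 (0.084 with library totals). The number that fell was 0 under library totals, 4 without control replicate 3, and 3 with DESeq2 size factors and without mitochondrial and shared loci. It was 1 with summed transcript rows, with the replicate block, and without control replicate 2 or any 1 of the Gli-RNAi replicates. The sum of the 9 muscle markers was between 16812 and 17327 in Gli-RNAi libraries and between 14410 and 15615 in controls, with Tm1, Zasp52 and sls as the 3 that rose. Without Tm1 the sum was between 11898 and 12081 in Gli-RNAi libraries and between 10925 and 11780 in controls. Of 4 tracheal markers 2 rose, or 4 with library totals, and the sum was between 248 and 267 in Gli-RNAi libraries and between 189 and 211 in controls. Neither tested haemocyte marker passed the edgeR test or an unadjusted p under 0.05. The sum of all 4 listed, with NimC1 and He below the filter, was between 138 and 157 in Gli-RNAi libraries and between 145 and 168 in controls. The haemocyte marker He had 0 reads in all 6 libraries. The part of these shifts in cell types in the values of the Hippo pathway genes was not tested.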

How the data were processed

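Per the file headers, the authors deposited raw read counts for 24047 transcript rows in 6 libraries, with adjusted p-values of their own test, and a second table of 3049 genes with a mean log2 fold change and smallest p-value. DESeq was used, per the submitters' processing notes, with aligner, counter, strand setting and genome build not given in the sources used here. The deposited column description of the log2 values runs control over treatment, but the counts show that they run Gli-RNAi over control.

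The members and lists were chosen with earlier results of these data known. Symbols were updated by Entrez identifier with RefSeq release 6 names (12825 loci matched). Loci named for several genes (362 loci, 3.82% of reads) were kept in the fit and out of the lists, which removed Dlish, Sik3, Krn, Act57B and btl. Counts were fitted with edgeR 4.0.16 (R 4.3.3): TMM scaling, default filter, quasi-likelihood F test, Benjamini-Hochberg adjustment over 8236 genes. SE is the absolute log2 fold change over the square root of F. DESeq2 1.42.0, limma-voom 3.58.1, other scalings, filters and transcript choices, a replicate block and leaving out each library were alternatives. Genes other than Gli and the 10 were named by rule: per list, at most 4 past the threshold with the largest change and 2 others with the highest mean. Exceptions were the genes said to be named after their values were seen, those below the filter and those without a locus of their own. On simulated counts for these 8236 genes the test recovered 42% of genes changed 1.25-fold and 96% of those changed 1.5-fold. The simulation changed 200 genes, none counted as low as ft, whereas 4476 were called in the data. It did not model the departure of control replicate 3, and so does not give the power for the Hippo pathway genes.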

Additional observations from a re-analysis of the deposited data

How the results depend on the processing

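In 16 alternatives the number of the 9 tested Hippo pathway genes that rose lay between 3 and 6 (4 in the fit reported) and the number that fell was 0. The 6 came with library totals, a scaling that raised the median log2 fold change of all genes by 0.19. The share of all genes that rose in each alternative was not computed. The genes ex and hpo were called in all 16 alternatives, with log2 fold changes from 0.595 to 0.821 and from 0.354 to 0.646. The call of kibra was lost with the DESeq2 Wald test (0.547), and its values without 1 library ran from 0.313 to 0.690. For sd these ran from 0.189 to 0.348, with the call lost without Gli-RNAi replicate 3. The gene sav was called with upper quartiles (0.296), library totals (0.478) and no filter (0.308), and without 1 library it ran from 0.132 to 0.422. The gene yki was called with library totals (0.278). Signs changed for genes not past the threshold: wts with DESeq2 size factors (-0.0036) and without 1 library (-0.0985 to 0.0702), mats with library totals (0.115) and without 1 library (-0.148 to 0.0020), and ft without 1 library (-0.209 to 0.254). The cause was not tested. The gene ds had a value only without the filter (-1.66, edgeR adjusted p = 0.289). Over all genes 4476 were called, from 3816 to 5249 in the alternatives. With a replicate block 4281 genes and the same number of Hippo pathway genes, 4, were called. Same-numbered libraries had deviations that correlated at -0.158, 0.046 and -0.092, and other pairs at -0.104 to 0.189. These values show no sign of pairing by number, but with 3 libraries per condition they cannot exclude it. Depth limits ft and ds, with 81 and 7 reads in all.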
